A study of Mus musculus with 10 samples.

Results

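The Notch pathway was followed in C2C12 cells, an immortalised line of mouse myoblasts that fuses into myotubes when serum is withdrawn, through 10 of its genes. The genes were 3 ligands (Dll1, Jag1 and Jag2), 3 receptors (Notch1, Notch2 and Notch3) and 4 genes of the Hes and Hey family of transcriptional repressors (Hes1, Hes6, Hey1 and Heyl). They were taken by symbol from 4 expression tables, 3 of which list 23417 genes and 1 of which lists 23431, and all 10 were found in each table. Every value is an FPKM, which divides the sequenced fragments of a gene by the length of its transcript and by the size of the library, so that levels can be compared between genes of different length. The study asked how the ubiquitin ligase Huwe1 and the deubiquitinase USP10 set the level of the transcription factor TBP as muscle cells differentiate. In proliferating myoblasts at day 0 in growth medium with 10% serum, 1 wildtype control library was set against 2 Huwe1 knockdown libraries. After 6 days in differentiation medium with 2% horse serum, 1 wildtype control library was again set against 2 Huwe1 knockdown libraries labelled with the same hairpins. In myotubes at day 8, 1 control library with a non-targeting RNA was set against 2 Huwe1 knockdown libraries labelled with other hairpins, delivered by lentivirus from day 4. At day 6, 1 library of a stable line that carries USP10 cDNA under the EF1a promoter was set against a control column. All knockdown cells had been selected with puromycin, while the day 0 and day 6 controls are labelled wildtype, so knockdown and selection cannot be told apart at those days. Each table gives 1 value per condition, and the 2 knockdown libraries of a table are merged in 1 column. No difference below therefore has a replicate check, and no test was possible.

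Notch signalling passes between touching cells. A ligand of the Delta-like or Jagged family on the first cell binds a Notch receptor on its neighbour, the receptor is cut by an ADAM protease and then by gamma-secretase, and the freed intracellular part enters the nucleus, where it joins the DNA-binding protein RBPJ and switches on genes such as Hes1, Hey1 and Heyl. In muscle, this signal is known for holding satellite cells and myoblasts in an undifferentiated state. Hes6 differs from the other family members, since it is known as an inhibitor of Hes1 and as a gene that promotes muscle and nerve cell differentiation.

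The hairpin targets are shown because they define the knockdown groups. Each was found in Huwe1 transcripts and in 0 transcripts of the 10 Notch pathway genes, and the longest run that any of them shares with such a transcript is 8 to 10 bases. The 4 target sequences, 5′ to 3′ in the sense of the transcript, were as follows.
day 0 and day 6, hairpin 1: gggaacctgtgattcgaga
day 0 and day 6, hairpin 2: gagaagaggacaactagta
day 8, hairpin 1: gcactcttcataactcacttt
day 8, hairpin 2: gcactgctcatcaaagatgtt
The sample labels give the first pair for day 0 and day 6 and the second pair for myotubes. The methods of the study name the second pair alone, for myoblasts and myotubes, so which hairpins were used at day 0 and day 6 could not be settled.

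Promoters are shown for Dll1 and Hes6, which were lower in the day 6 knockdown than in the control of its table, and for Notch2, which was higher. Against the control of the USP10 table, after centring on the median gene, Hes6 and Notch2 were not past 2-fold. Their log2 ratios were then -0.47 and 0.48. The promoters come from RefSeq on build GRCm38.p6, which lists promoters for 7 of the 10 genes (Hes1, Hey1 and Heyl were not matched). Dll1 and Hes6 have 2 start sites each in that table, of which both are printed for Dll1 and that of the listed locus for Hes6. The start of the locus that the expression tables give for Dll1 is the second of its lines, where the bases nearest to the start are left out because they lie in an exon of another transcript. The part upstream of the start is given 5′ to 3′ on the strand of the gene. Capitals mark the E-box CAGCTG, a form of the element that MyoD and other basic helix-loop-helix factors bind, and the TATA box TATAAA.
Dll1, upstream start, chr17:15376933-15377182, minus strand: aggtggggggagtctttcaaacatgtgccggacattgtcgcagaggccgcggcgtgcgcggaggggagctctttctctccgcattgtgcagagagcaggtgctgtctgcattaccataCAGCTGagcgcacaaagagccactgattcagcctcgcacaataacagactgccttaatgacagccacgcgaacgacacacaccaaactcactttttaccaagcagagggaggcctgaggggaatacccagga
Dll1, start of the listed locus, chr17:15375977-15376073, minus strand: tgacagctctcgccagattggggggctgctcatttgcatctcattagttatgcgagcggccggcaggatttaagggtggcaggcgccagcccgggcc
Hes6, chr1:91413223-91413472, minus strand: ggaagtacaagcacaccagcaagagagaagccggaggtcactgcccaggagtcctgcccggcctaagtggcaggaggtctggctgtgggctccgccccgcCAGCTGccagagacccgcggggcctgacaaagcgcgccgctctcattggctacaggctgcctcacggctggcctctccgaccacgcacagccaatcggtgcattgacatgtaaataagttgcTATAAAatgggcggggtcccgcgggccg
Notch2, chr3:98013288-98013526, plus strand: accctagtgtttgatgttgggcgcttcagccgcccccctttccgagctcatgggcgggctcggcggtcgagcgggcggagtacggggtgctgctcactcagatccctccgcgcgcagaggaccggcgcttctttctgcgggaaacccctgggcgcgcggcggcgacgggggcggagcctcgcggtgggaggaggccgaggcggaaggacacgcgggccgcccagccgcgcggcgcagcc
The Hes6 sequence holds the E-box at position -150 and the TATA box at position -28, counted back from the start site, and the upstream Dll1 sequence holds the E-box at position -132. The window at the start of the listed Dll1 locus and the Notch2 window hold neither. In windows of 300 bases around the start sites of all 32817 promoters in the table, searched on both strands, CAGCTG is found in 16.3% and TATAAA in 13.6%. The letters GTGGGAA, the core bound by RBPJ, are found in 6.39% of those windows and in none of the windows of the 7 matched genes. CAGCTG was also found in the window of Jag1 and in the other window of Hes6. A match describes the letters only, and a missing match says nothing about binding outside the window. The E-box and the TATA box do not overlap in the Hes6 sequence.

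The knocked-down and overexpressed genes were read first, as a check of the labels. Huwe1 went from 38.3 to 15.2 FPKM at day 0, from 35.1 to 21.9 FPKM at day 6 and from 55.4 to 33.0 FPKM at day 8. Among genes with 1 FPKM in a column, 0.763% had a lower ratio than Huwe1 at day 0. At day 6 and day 8 the shares were 20.4% and 14.0%. Usp10 was at 10.3 FPKM in the control and at 38.3 FPKM in the overexpressing line. It was also at 13.2 and 35.4 FPKM in the control and the knockdown of the day 6 Huwe1 table. In day 0 myoblasts it was at 68.5 FPKM (control) and 64.2 FPKM (knockdown), above the overexpressing line. The Usp10 level of that line was thus above its own control, but so was that of the day 6 knockdown, which is not labelled as overexpressing USP10. It therefore does not by itself check the label of the line. The control columns and the USP10 column were estimated at 7790000 to 29900000 fragments, and the merged knockdown columns could not be estimated. The lowest of these depths is that of the control of the USP10 table, and the highest that of the day 6 control of the Huwe1 table. In the longest coding transcripts of GENCODE, Notch1 and Notch2 have 34 exons, Notch3 33, Jag1 and Jag2 26, Dll1 11, Hey1 and Heyl 5, and Hes1 and Hes6 4. The loci given below are those of the expression tables, and all but those of Notch3 and Heyl start inside the GENCODE gene. All 4 myoblast markers (Myod1, Myf5, Des and Cdh15) were at 1 FPKM or more in all 8 columns. The defining markers of macrophages were absent, with Ptprc at no more than 0.0102 FPKM and Emr1 at 0, and Cd68 alone of the 4 passed 1 FPKM. The endothelial genes Pecam1, Kdr and Tie1 and the mural genes Rgs5 and Myh11 stayed at or under 0.346 FPKM, while Cdh5 of the endothelial list reached 13.5 FPKM and Pdgfrb and Cspg4 of the mural list 52.1 and 4.61 FPKM. The 2 control columns at day 6 carry the same library name in their headers but do not hold the same values, and at least 2-fold differences between them, after centring on the median gene, were found for 19.9% of 11459 genes. The robust SD of the log2 ratio between these columns was 0.63, and it serves below as the only available measure of how far control columns of 1 day lie apart.

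In the day 0 comparison, 8 of the 10 genes reached 1 FPKM in a column, the minimum set for a ratio to be counted, and 2 of them were at least 2-fold lower in the knockdown. At least 2-fold lower values were found for 1.69% of all 10874 genes counted, and at least 2-fold higher values for 1.90%, a direction that 0 of the 8 genes showed. In the day 6 comparison, 6 of the 10 genes were at least 2-fold lower, against 13.4% of 11695 genes, and 2 were at least 2-fold higher, against 17.6%. In day 8 myotubes, 3 of the 10 genes were at least 2-fold lower, against 10.0% of 11755 genes, and 0 were at least 2-fold higher, against 7.89%. With USP10 overexpression, 4 of the 10 genes were at least 2-fold lower, against 10.0% of 11482 genes, and 0 were at least 2-fold higher, against 9.70%. The median log2 ratios of treated over control, computed after adding 0.01 FPKM to each value, were, over the counted genes, -0.66 at day 0, -1.13 at day 6, -0.35 at day 8 and -0.78 with USP10, where the medians of all genes were 0.00, -0.01, 0.00 and 0.05. The spread of all genes was far from equal, with robust SDs of 0.29, 0.87, 0.60 and 0.59. The share of genes past 2-fold was thus several times smaller at day 0 than in the other comparisons, and a given fold there stands farther out in its table. In cultures that mix myoblasts and myotubes, fewer cells of a type and less RNA per cell cannot be told apart.

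**Figure D1:**
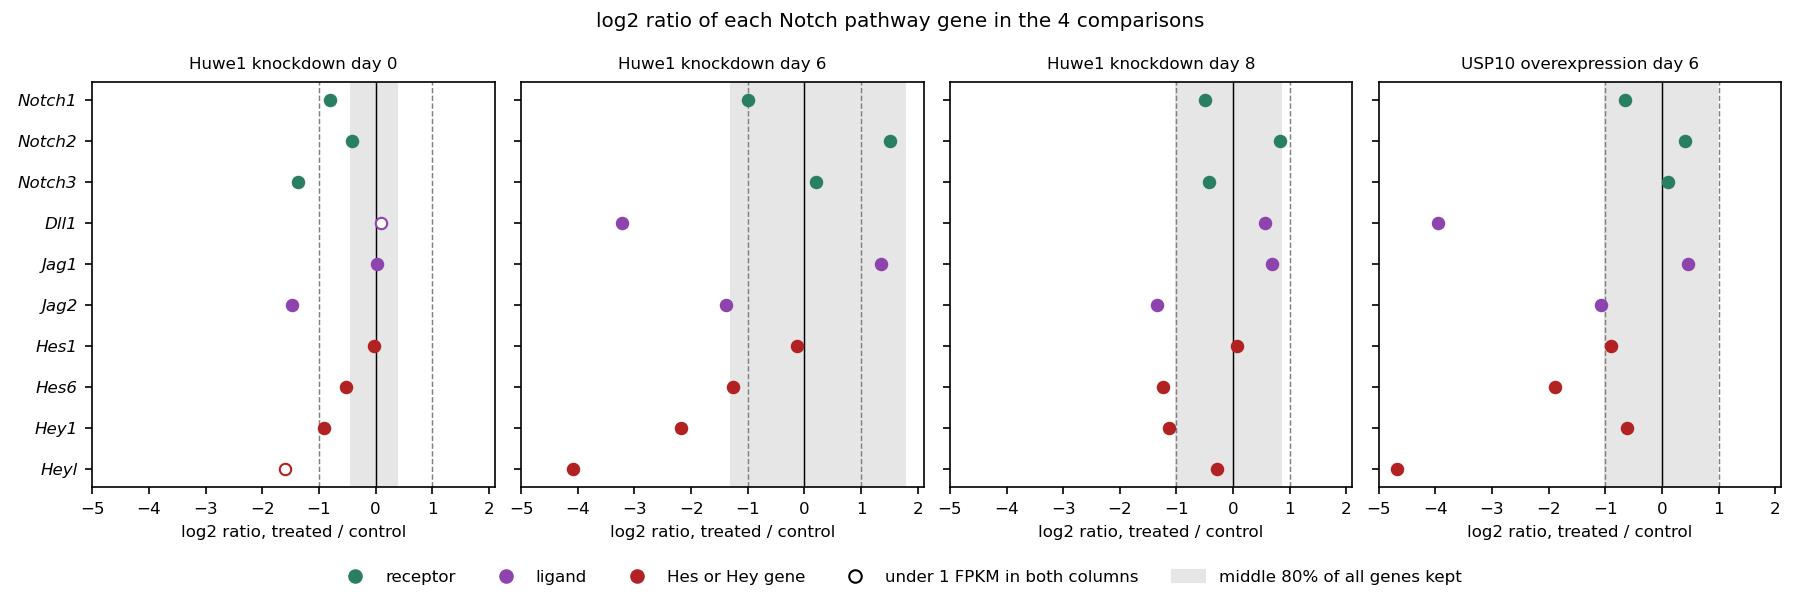
The x axis gives the log2 ratio of treated to control FPKM, after adding 0.01 to both, for each of the 10 genes (rows) in the 4 comparisons (panels); colours mark receptors, ligands and Hes or Hey genes, open circles mark genes under 1 FPKM in both columns, the grey band holds the middle 80% of all genes counted and dashed lines mark 2-fold. Dll1 and Heyl lie far to the left in both day 6 panels, at -3.22 and -4.09 with the Huwe1 knockdown and at -3.96 and -4.68 with USP10, whereas Notch2 and Jag1 lie to the right at day 6 of the knockdown, at 1.51 and 1.36.

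Among the ligands, Dll1 showed the widest range. Dll1, a Delta-like ligand that lies on chromosome 17 from 15367354 to 15375823 on the minus strand of mm10, was at 0.143 FPKM in control and 0.154 FPKM in knockdown myoblasts at day 0, at 15.4 and 1.64 FPKM at day 6, and at 23.5 and 34.8 FPKM at day 8. In the USP10 table it was at 5.37 FPKM in the control and at 0.337 FPKM in the overexpressing line. Dll1 was thus nearly silent in myoblasts of either kind, was high in all differentiated controls, and was low at day 6 in the knockdown and the USP10 line. The fold differences were 9.33-fold lower in the day 6 knockdown and 15.5-fold lower with USP10, and the log2 ratio in day 8 myotubes was 0.57, in the direction of higher values. With 1 FPKM added in place of 0.01 FPKM, the log2 ratio with USP10 was -2.25, against -3.96. In the USP10 table the control value rests on about 150 fragments, with an exact 95% Poisson interval of 4.55 to 6.31 FPKM, and the USP10 value on 33 fragments, with an interval of 0.230 to 0.469 FPKM. These intervals cover counting error only.

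Jag2, a Jagged-family ligand on chromosome 12 from 112908590 to 112929495, minus strand, was at 7.82 FPKM (control) and 2.80 FPKM (knockdown) at day 0, at 4.74 and 1.81 FPKM at day 6, and at 9.40 and 3.68 FPKM at day 8. The USP10 table lists it at 3.25 FPKM in the control and at 1.55 FPKM in the overexpressing line. The treated column was the lower in each table, including the myoblast table, where few genes differed. The log2 ratios were -1.48 at day 0, -1.38 at day 6, -1.35 at day 8 and -1.07 with USP10. At day 0, 0.506% of all genes counted had a lower ratio than Jag2, whereas at day 6 of the knockdown the share was 9.21%, at day 8 it was 6.98% and with USP10 it was 9.41%. With the other day 6 control and centring, the day 6 knockdown ratio was -0.90.

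Jag1, the other Jagged ligand, lies on chromosome 2 from 137081451 to 137116520, minus strand, and its levels stayed between 2.14 and 9.06 FPKM. It was at 3.55 FPKM (control) and 3.59 FPKM (knockdown) at day 0, at 2.14 and 5.51 FPKM at day 6, and at 4.70 and 7.52 FPKM at day 8. Its levels in the USP10 table were 6.61 FPKM in the control against 9.06 FPKM in the overexpressing line. Jag1 thus did not share the lower values of Dll1 and Jag2, and its log2 ratios were 0.02, 1.36, 0.68 and 0.45 in the same order. The day 6 difference depends on the control column, since the knockdown column lies above the control of its own table and below the 6.61 FPKM of the other day 6 control.

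The 3 receptors did not move as a group. Notch1, which lies on chromosome 2 from 26457902 to 26503822, minus strand, was at 4.13 FPKM (control) and 2.35 FPKM (knockdown) at day 0, at 4.15 and 2.07 FPKM at day 6, and at 11.2 and 7.91 FPKM at day 8. In the USP10 table it was at 2.68 FPKM in the control against 1.70 FPKM in the overexpressing line. The treated column was the lower in each table, by log2 ratios of -0.81 at day 0, -0.51 at day 8 and -0.65 with USP10. The day 8 ratio lies within the 0.63 spread between the day 6 controls, and the USP10 ratio lies close to it. At day 6 the difference was 2.00-fold, just at the limit for being counted, and once the ratios were centred it was -0.99 on the log2 scale and was not counted. With the other day 6 control and centring, the Notch1 ratio in the day 6 knockdown was -0.43.

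Notch2, on chromosome 3 from 98013538 to 98150367, plus strand, was the receptor with the highest level in each column. It was at 15.2 FPKM (control) and 11.4 FPKM (knockdown) at day 0, at 10.8 and 30.7 FPKM at day 6, and at 19.2 and 34.0 FPKM at day 8. The USP10 table lists it at 21.1 FPKM in the control against 28.1 FPKM in the overexpressing line. The knockdown column was thus the lower at day 0 and the higher at day 6 and day 8, with log2 ratios of -0.41, 1.51 and 0.83, and the ratio with USP10 was 0.41. The 2 controls of day 6 differ by 2.06-fold in Notch2 after centring, beside a knockdown difference of 2.85-fold at day 6.

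Notch3, on chromosome 17 from 32120893 to 32166852, minus strand, was at 5.10 FPKM (control) and 1.96 FPKM (knockdown) at day 0, at 4.08 and 4.72 FPKM at day 6, and at 15.1 and 11.2 FPKM at day 8. Its levels in the USP10 table were 3.01 FPKM in the control against 3.26 FPKM in the overexpressing line. Notch3 was 2.59-fold lower in knockdown myoblasts, and 0.681% of all genes in that table had a lower ratio. Its log2 ratios after differentiation were 0.21, -0.43 and 0.12, all within the spread between the day 6 controls. Mural cells are a known source of Notch3, and the 5 mural markers summed to 21.6 FPKM (control) and 18.7 FPKM (knockdown) at day 0, nearly all of it Pdgfrb, with Rgs5 and Myh11 at or near 0. These sums were 8.55 and 31.3 FPKM at day 6, 49.7 and 44.9 FPKM at day 8, and 55.6 and 35.5 FPKM in the USP10 table, and at day 6 Pdgfrb was at 6.62 and 29.2 FPKM. All libraries come from the C2C12 line, and Pdgfrb was already at 20.1 FPKM in its day 0 control myoblasts. Whether any mural cells were present was not tested.

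Of the Hes and Hey genes, Heyl had the lowest log2 ratios in both day 6 comparisons and Hes6 the lowest at day 8. Heyl, a repressor of the Hey group on chromosome 4 from 123233556 to 123249870, plus strand, was at 0.116 FPKM in control and 0.0313 FPKM in knockdown myoblasts at day 0, at 5.89 and 0.337 FPKM at day 6, and at 27.2 and 22.4 FPKM at day 8. In the USP10 table it was at 2.00 FPKM in the control and at 0.0684 FPKM in the overexpressing line. Heyl followed the pattern of Dll1, with values near 0 in myoblasts, high values in differentiated controls and low values in the treated cells of day 6. At day 0 both columns were under the 1 FPKM minimum and the ratio was not counted. Heyl was 17.0-fold lower in the day 6 knockdown and 25.6-fold lower with USP10, while in day 8 myotubes the log2 ratio was -0.28. The size of these differences depends on the value added, and with 1 FPKM in place of 0.01 FPKM the log2 ratios were -2.37 in the day 6 knockdown, against -4.09, and -1.49 with USP10, against -4.68, or -3.64 with 0.1 FPKM. The USP10 value rests on about 9 fragments, with a Poisson interval of 0.0329 to 0.136 FPKM, and the control value on 71 fragments, with an interval of 1.57 to 2.54 FPKM.

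Hey1, the other Hey gene, lies on chromosome 3 from 8663359 to 8667038, minus strand. It was at 2.13 FPKM (control) and 1.14 FPKM (knockdown) at day 0, at 3.85 and 0.844 FPKM at day 6, and at 22.2 and 10.1 FPKM at day 8. The USP10 table lists it at 1.52 FPKM in the control against 0.986 FPKM in the overexpressing line. The treated column was the lower in each table, with log2 ratios of -0.90, -2.18, -1.13 and -0.62. With 1 FPKM added, the day 6 ratio was -1.39. The USP10 difference is the weakest of these, and the interval of the control, 1.03 to 2.21 FPKM from about 29 fragments, overlaps the interval of the USP10 column, 0.764 to 1.26 FPKM.

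Hes6, on chromosome 1 from 91411483 to 91413222, minus strand, had the highest level of the 10 genes in the day 6 and day 8 controls. It was at 10.8 FPKM (control) and 7.53 FPKM (knockdown) at day 0, at 41.3 and 17.4 FPKM at day 6, and at 73.8 and 31.2 FPKM at day 8. Its levels in the USP10 table were 23.0 FPKM in the control against 6.22 FPKM in the overexpressing line. The treated column was again the lower in each table, and the log2 ratios were -0.52 at day 0, -1.25 at day 6, -1.24 at day 8 and -1.89 with USP10. The day 0 ratio lies within the 0.63 spread between the day 6 controls. With the other day 6 control and centring, the day 6 knockdown ratio was -0.47.

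Hes1, the best known direct target of the Notch signal, lies on chromosome 16 from 30065357 to 30067796, plus strand. It was at 27.1 FPKM (control) and 26.5 FPKM (knockdown) at day 0, at 14.2 and 13.1 FPKM at day 6, and at 34.2 and 35.9 FPKM at day 8. In the USP10 table it was at 14.4 FPKM in the control against 7.75 FPKM in the overexpressing line. The Huwe1 knockdown columns lay next to their controls at each day, with log2 ratios of -0.04, -0.12 and 0.07, and the column of the USP10 line was 1.86-fold lower than its control. Hes1 was also the gene on which the 2 day 6 controls lay closest, at 1.07-fold apart after centring.

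**Figure D2:**
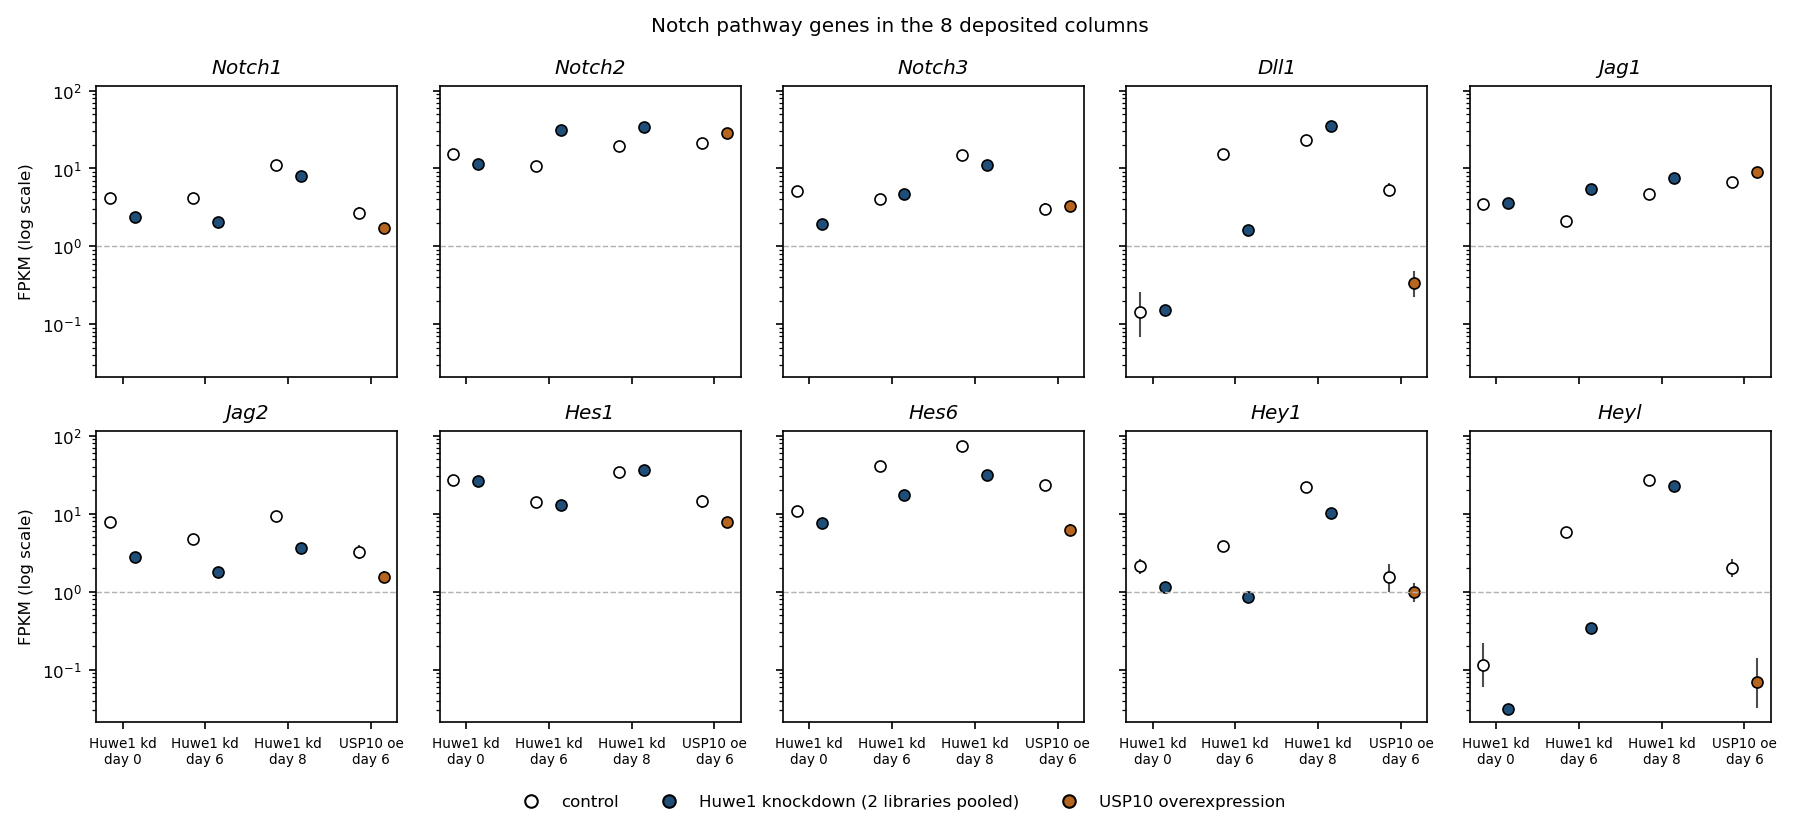
Each panel gives the FPKM of 1 gene on a log axis in the control column (white) and the treated column (blue, Huwe1 knockdown; orange, USP10 overexpression) of the 4 tables along the x axis, with the 1 FPKM minimum as a dashed line; vertical bars are exact 95% Poisson intervals of the columns whose depth could be estimated, and most are smaller than the point. Heyl runs from 0.0313 to 27.2 FPKM and Dll1 from 0.143 to 34.8 FPKM, whereas Notch2 stays between 10.8 and 34.0 FPKM.

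Set side by side across the tables, which were normalized separately, the control columns differed in several of the genes. Between the day 0 and day 6 controls, Dll1 was 108-fold higher, Heyl 50.8-fold higher and Hes6 3.83-fold higher, while Hes1 was 1.91-fold lower. The day 0 control values of Dll1 and Heyl rest on about 11 and 12 fragments. Their Poisson intervals are 0.0700 to 0.251 FPKM and 0.0624 to 0.211 FPKM, so the size of these folds is uncertain. The control of the USP10 table gave smaller folds over the day 0 control, at 37.6-fold for Dll1, 17.2-fold for Heyl and 2.13-fold for Hes6. Hey1 was 1.81-fold higher than at day 0 in the first of these day 6 controls and 1.40-fold lower in the control of the USP10 table. Between the day 6 and day 8 controls, Hey1 was 5.78-fold higher and Heyl 4.62-fold higher, and Dll1 was 1.53-fold higher. In the knockdown columns, Dll1 was 10.6-fold higher at day 6 than at day 0 and 21.3-fold higher at day 8 than at day 6, and Heyl was 10.8-fold and then 66.5-fold higher. The first Heyl fold goes from 0.0313 to 0.337 FPKM, both under the 1 FPKM minimum, and the knockdown columns have no estimated depth. The day 8 knockdown was started in cells that had already differentiated, and by the labels with other hairpins, so time and the stage of infection, and the hairpin if the labels hold, cannot be told apart in the last step.

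Adjacent columns in the order of each gene were compared with the 0.63 log2 spread between the day 6 controls. For Heyl, 6 of 7 neighbouring pairs lay farther apart than this spread, and the exception was control and knockdown at day 8. Its 3 lowest columns are not ordered by this, since the intervals of the day 0 control, 0.0624 to 0.211 FPKM, and of the USP10 column overlap and the day 0 knockdown has no estimated depth. For Dll1, 4 of 7 pairs lay beyond the spread, and for Hey1 3 of 7. In Heyl and Dll1 these pairs include the day 6 controls themselves, 1.56 and 1.52 apart on the log2 scale. The spread over all genes thus understates how far the day 6 controls lie apart in Heyl and Dll1. The columns were sorted by level first and were not centred, so the count tends to rise with the range of a gene. The same count over all genes was not made. For Notch2, 0 of 7 pairs lay beyond the spread, although its highest and lowest columns differ by 3.15-fold. For Hes1 and Hes6, 2 of 7 pairs lay beyond the spread, and for Notch1, Notch3, Jag1 and Jag2 1 of 7. The full range from lowest to highest column was 869-fold for Heyl, 244-fold for Dll1, 26.3-fold for Hey1 and 11.9-fold for Hes6, and lay between 3.15-fold and 7.69-fold for the other 6 genes.

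Differentiation markers moved with the 2 genes of widest range at day 6 but not at day 8. The 5 myotube markers (Myog, Ckm, Myh3, Acta1 and Tnnt3) summed to 4.97 and 7.84 FPKM in control and knockdown at day 0, to 10761 and 1614 FPKM at day 6, to 9037 and 1895 FPKM at day 8, and to 4898 and 2210 FPKM in the USP10 table. All 5 were at least 2-fold lower in the knockdown at day 6 and at day 8, and 4 of 5 were with USP10. At day 6, Dll1 and Heyl were low in the same columns as these markers. At day 8, by contrast, the 5 markers were lower in the knockdown by a median log2 ratio of -3.04, while the ratios of Dll1 and Heyl were 0.57 and -0.28. The part that the differentiation state has in the values of Dll1 and Heyl was not tested.

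Genes listed as markers of fibro-adipogenic cells, taken as a sum, were high in the treated columns of day 6. The 4 markers (Pdgfra, Dcn, Ly6a and Cd34) summed to 13.1 FPKM (control) and 3721 FPKM (knockdown) at day 6, and to 112 and 3563 FPKM in the USP10 table, where Dcn and Ly6a made up nearly all of the sum in the treated columns, while at day 8 the sums were 27.2 and 26.2 FPKM. Within the day 8 sums, Pdgfra was at 1.95 and 7.74 FPKM and Dcn at 4.19 and 8.75 FPKM, higher in the knockdown, and Ly6a was at 13.9 and 4.28 FPKM, lower in it. The endothelial gene Cdh5, at 13.5 and 11.2 FPKM in myoblasts, was at 0.0241 and 6.83 FPKM at day 6 and at 0.278 and 6.81 FPKM in the USP10 table, and the remaining 5 endothelial markers did not exceed 1.08 FPKM in any column. Against the control of the same table, Notch2 and Jag1 were higher in the day 6 knockdown, as the fibro-adipogenic markers were. With the other day 6 control and centring, the knockdown log2 ratios of Notch2 and Jag1 were 0.48 and -0.32. With USP10, 3 of the 4 markers were at least 2-fold higher, and Pdgfra was at 2.96 and 3.98 FPKM. In that comparison the ratios of Notch2 and Jag1 were 0.41 and 0.45. At day 8 they were 0.83 and 0.68. All 4 markers reached 1 FPKM in C2C12 myoblasts at day 0, with sums of 36.6 FPKM (control) and 47.7 FPKM (knockdown). Cd34 was then at 17.5 and 28.5 FPKM and Ly6a at 15.5 and 12.6 FPKM. In the day 6 control of the Huwe1 table, Cd34 and Ly6a were lower, at 1.59 and 2.54 FPKM. Pdgfra was also lower there than in the day 0 control, at 1.02 against 2.37 FPKM, and Dcn higher, at 7.94 against 1.27 FPKM. Whether the fibro-adipogenic markers come with a change in cell makeup was not tested.

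**Figure D3:**
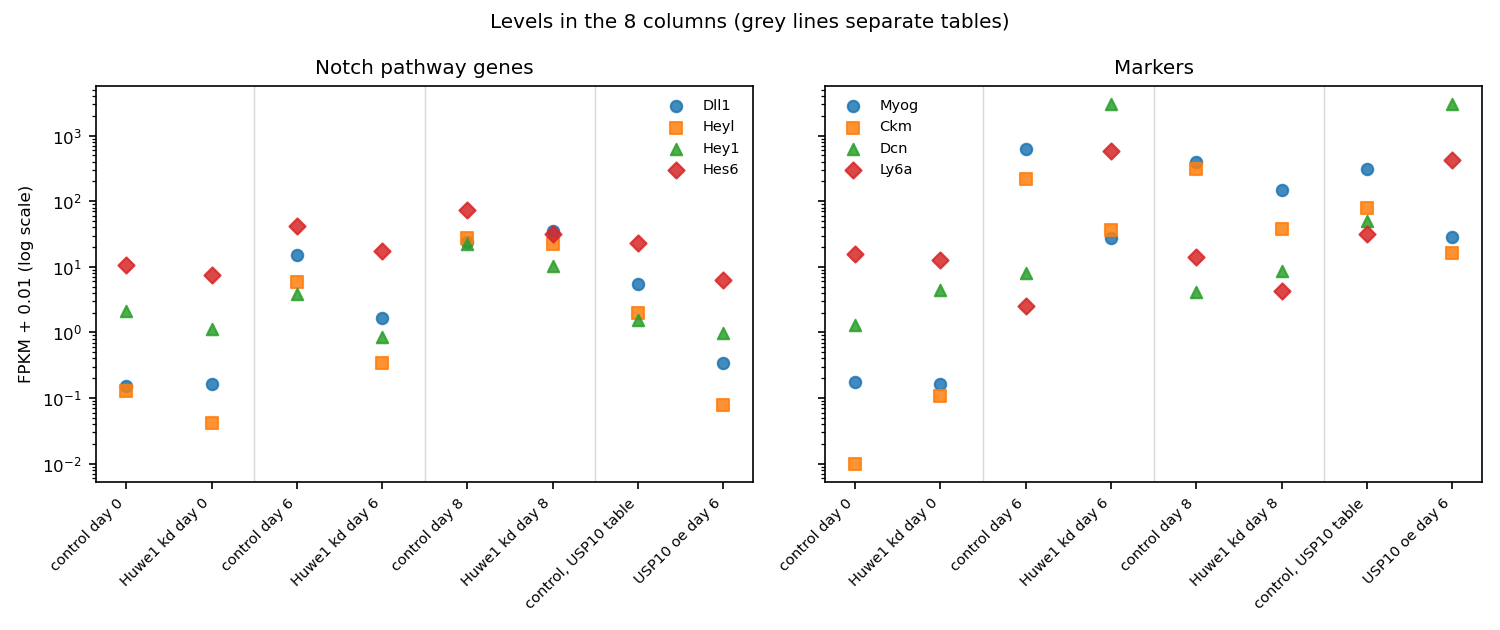
FPKM plus 0.01 on a log axis is plotted for 4 Notch pathway genes (left) and 4 marker genes (right) in the 8 columns along the x axis, and grey lines separate the tables. Dll1 and Heyl are high in the day 6 controls and in both day 8 columns, while the myotube gene Myog is at 619 and 27.1 FPKM in control and knockdown at day 6 and at 392 and 148 FPKM at day 8.

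The 2 control columns of day 6 put a limit on the day 6 values. Between them, 5 of the 10 genes differed by at least 2-fold after centring, against the 19.9% of all genes given above. Dll1 was at 15.4 and 5.37 FPKM, Heyl at 5.89 and 2.00 FPKM, Hey1 at 3.85 and 1.52 FPKM, Jag1 at 2.14 and 6.61 FPKM and Notch2 at 10.8 and 21.1 FPKM. Dll1, Heyl and Hey1 were therefore the higher in the control of the Huwe1 table, and Jag1 and Notch2 in the control of the USP10 table. The latter control also had less of the myotube markers, with a sum of 4898 FPKM against 10761 FPKM. The Huwe1 and USP10 comparisons at day 6 share the name of their control, so their ratios are given side by side only.

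With the control columns exchanged between the day 6 tables and the ratios centred, the low values of Dll1 and Heyl stayed past 2-fold. The log2 ratios in the knockdown were then -1.76 for Dll1 and -2.59 for Heyl, against -3.22 and -4.08 with their own control and the same centring. For the USP10 line they were -5.46 and -6.23, against -4.00 and -4.73. In the knockdown, Hey1, Jag2 and Hes6 were then at -0.90, -0.90 and -0.47 and no longer past 2-fold. Notch2 was at 0.48 and Jag1 at -0.32, a change of direction. With USP10, Jag2 and Hes6 were at -1.60 and -2.72 and stayed past 2-fold, and Hey1, at -1.94, and Notch1, at -1.27, came to lie past it, as did Notch2 at 1.39 and Jag1 at 2.09 in the direction of higher values.

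**Figure D4:**
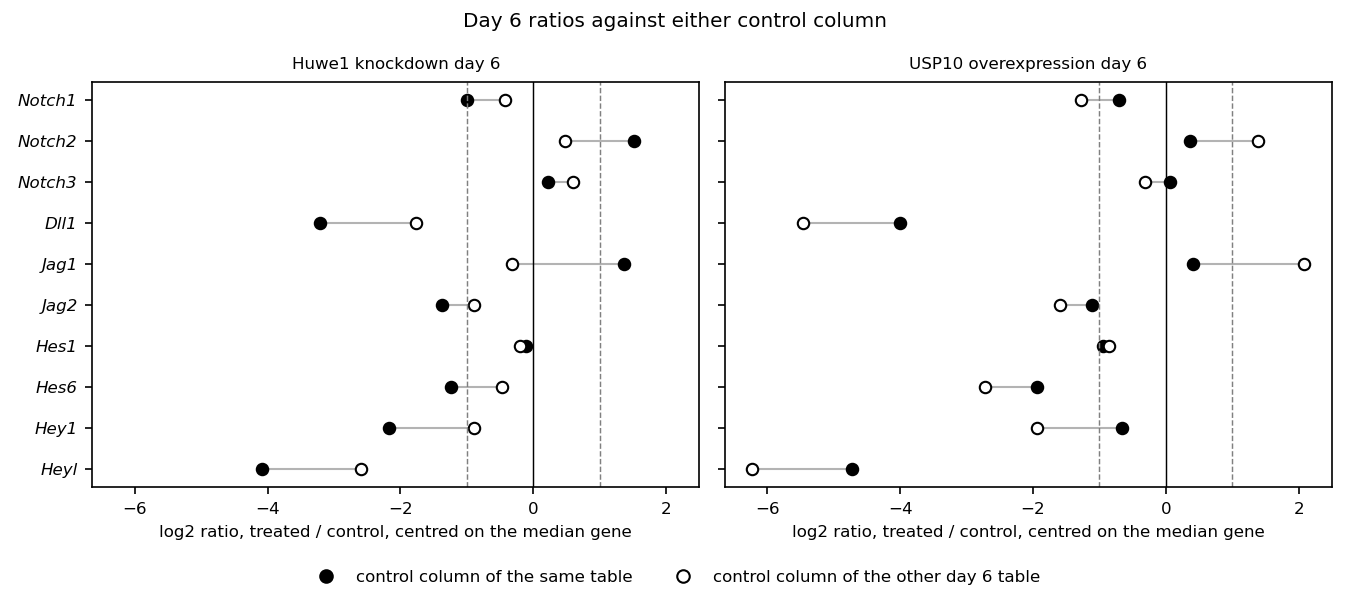
The x axis gives the log2 ratio, centred on the median gene, of the day 6 knockdown (left) and the USP10 line (right) against the control of the same table (filled) and of the other day 6 table (open), with 1 row per gene and dashed lines at 2-fold. Dll1 and Heyl lie below -1 with either control in both panels, whereas Jag1 crosses 0 in the left panel, from 1.37 to -0.32.

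The other genes of the pathway were described from a list of 56, made of further receptors, ligands and Hes or Hey genes, glycosyltransferases of the receptor, proteases, the nuclear complex, corepressors and modulators. All 10 further receptors, ligands and Hes or Hey genes (Notch4, Dll3, Dll4, Dlk1, Dlk2, Hes2, Hes3, Hes5, Hes7 and Hey2) stayed under 1 FPKM in all 8 columns, with Dlk2 the highest at 0.968 FPKM. The core machinery was present throughout, for example Rbpj, the DNA-binding partner, at 21.3 to 50.5 FPKM and Adam10, the receptor-cutting protease, at 31.4 to 44.0 FPKM. Among the 40 list genes counted at day 0, 1 was at least 2-fold lower and 0 higher, against 1.69% and 1.90% of all genes. At day 6, 3 of 40 were lower and 5 higher, against 13.4% and 17.6%. At day 8, 3 of 41 were lower and 3 higher, against 10.0% and 7.89%, and with USP10 0 of 39 were lower and 2 higher, against 10.0% and 9.70%. The median log2 ratios of the list were -0.10, 0.24, 0.17 and 0.15, all nearer to 0 than the medians of the 10 genes.

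By role, the proteases, with 8 genes counted, had median log2 ratios between -0.16 and 0.25, and the corepressors, with 11 genes counted, between -0.11 and 0.42. The exception among the proteases was Psen2, a catalytic subunit of gamma-secretase, which was at 28.2 FPKM in the day 6 control and at 6.52 FPKM in the knockdown, a log2 ratio of -2.11. Neurl1a, a ubiquitin ligase that acts on Notch ligands, went from 44.5 to 19.6 FPKM at day 6 and from 38.6 to 9.27 FPKM at day 8. It was also the gene counted as lower at day 0, at 3.65 and 1.71 FPKM. Fbxw7, which marks the intracellular part of Notch for degradation, went from 22.5 to 11.0 FPKM at day 6 and from 16.7 to 7.71 FPKM at day 8. The day 6 differences of Neurl1a and Fbxw7 depend on the control column. In the control of the USP10 table, Neurl1a was at 16.7 FPKM, below the day 6 knockdown, and Fbxw7 at 12.8 FPKM, close to it. Psen2 was at 17.4 FPKM there, above the knockdown.

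Against the control of the same table, the higher genes of the wider list were coactivators, corepressors, Deltex genes, Mib2 and Lfng. In the day 6 knockdown, Maml2, a coactivator of the Notch complex, was at 5.75 FPKM against 1.98 FPKM in the control. The Groucho-type corepressors Tle2 and Tle3 were at 5.40 against 2.17 FPKM and at 44.4 against 18.3 FPKM. Dtx3, of the Deltex family, was at 35.9 against 17.9 FPKM at day 6 and at 36.0 against 14.9 FPKM at day 8. In day 8 myotubes, Dtx4 was at 41.9 against 16.4 FPKM and Mib2, a ubiquitin ligase of the Mind bomb type, at 27.7 against 13.7 FPKM. In the USP10 line, Maml3 was at 17.8 against 5.95 FPKM and Dtx4 at 6.51 against 2.63 FPKM. Some of these day 6 differences depend on the control column. The control of the USP10 table held Maml2 at 5.66 FPKM and Tle3 at 40.7 FPKM, close to the day 6 knockdown. Tle2 and Dtx3 were lower there, at 1.16 and 13.5 FPKM. The day 6 control of the Huwe1 table held Dtx4 at 8.33 FPKM, above the USP10 line, and Maml3 at 4.89 FPKM, below it. Lfng, the Fringe enzyme that adds sugars to the receptor and shifts its choice of ligand, completes the counts of day 6 and day 8, and is named here after its values were seen. It was at 0.117 FPKM (control) and 1.31 FPKM (knockdown) at day 6, and at 2.36 and 0.628 FPKM at day 8. The control of the USP10 table held Lfng at 0.787 FPKM.

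**Figure D5:**
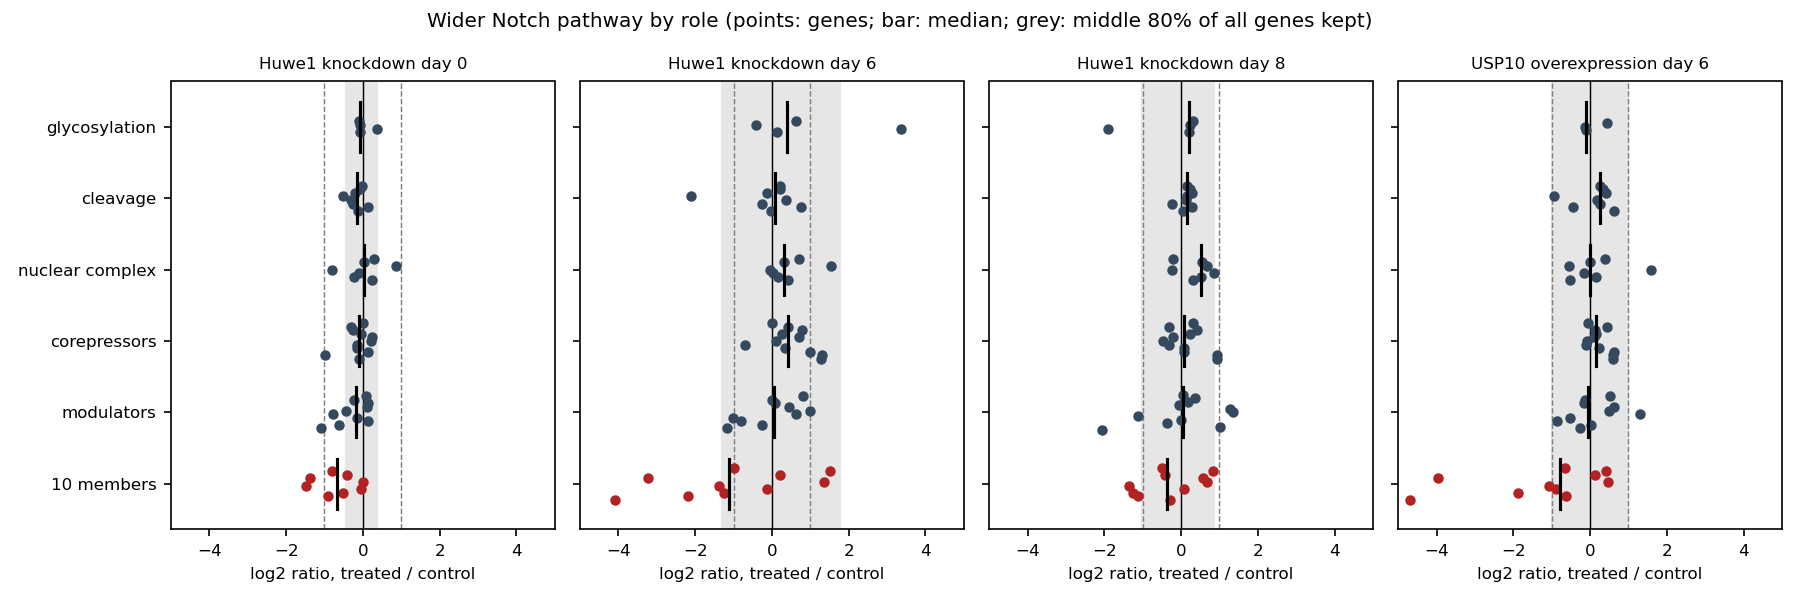
The x axis gives the log2 ratio of treated to control FPKM with 0.01 added in the 4 comparisons (panels) for the genes of the wider pathway grouped by role (rows, dark points) and for the 10 genes described here (red points); black bars are group medians, the grey band holds the middle 80% of all genes counted and dashed lines mark 2-fold. At day 6 the 10 genes spread from -4.09 to 1.51, and most other pathway genes stay inside the band, with Psen2 at -2.11 and Lfng at 3.37 outside it.

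The likeness between genes was described over the 8 columns by Pearson's r of log2(FPKM + 1). The columns share cell lines, tables and, by name, a control, so they are not independent. Within the 10 genes, Notch1 and Hey1 had an r of 0.980, Dll1 and Heyl 0.966, Heyl and Hey1 0.940, and Notch2 and Jag1 0.880, whereas Notch2 and Jag2 had an r of -0.421. Among 8324 genes, Ramp2 and Bmp6 were among those most like Dll1, with r of 0.991 and 0.985, and those most like Heyl were Plxnd1, Atg3 and Spats2l, with r of 0.986, 0.979 and 0.977. Hey1 was the gene most like Notch1 and Notch1 the gene most like Hey1. The genes most like Hes6 were Zfand6, Inpp4b and Obsl1, with r of 0.973, 0.971 and 0.969. Of the 10 genes, Jag2 was the one with which 0 genes reached an r of 0.95, and the gene most like it was Ccdc23 with an r of 0.939. For Dll1, 73 genes reached that value, for Heyl 38 and for Hes6 23.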

How the data were processed

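RNA of 10 C2C12 libraries was purified on oligo(dT) beads, prepared with ScriptSeq v2 and sequenced on an Illumina HiSeq. The methods name Tophat for mapping, the submitters' processing notes Bowtie2, and both Cuffdiff; the build is mm10. Versions and the annotation are not given in the sources used here. The deposited values are FPKM, computed by the authors with 1 value per condition and normalized separately in each table. The deposited log2 fold change, test score, p-value and q-value columns of the authors' own comparison were not used.

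Ratios were computed within a table after adding 0.01 FPKM, over genes that reached 1 FPKM in either column, and counted from 2-fold. The folds set side by side across the tables and the full ranges were computed without the added 0.01 FPKM. The text names the 10 genes, the markers, genes of the wider list that differed by 2-fold with 5 FPKM in 1 column and 1 FPKM in both (up to 5 per direction), and the 3 genes most like a member among those with 10 FPKM in 1 column and a locus of 500 bases, of which 1 is not reported here. Genes and lists were chosen with earlier results of these data known. Depth was estimated from the FPKM of 1 fragment in genes with 1 transcript of at least 1500 bases. The computations were tested on simulated data. Alternatives were pseudocounts of 0.1 and 1, no minimum, a minimum of 5 FPKM or of 1 FPKM in both columns, centring, and the other day 6 control column. Python 3.11.15, numpy 2.4.6, pandas 2.3.3, scipy 1.17.1 and matplotlib 3.10.9 were used.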

Additional observations from a re-analysis of the deposited data

Results flagged for a closer look

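In Notch2 the Huwe1 knockdown lay below its control at day 0 and above it at the later days. The log2 ratio was -0.41 at day 0 and 1.51 at day 6, a difference of 1.92, and it was 0.83 at day 8, a difference of 1.24 from day 0. In Dll1 the knockdown lay below its control at day 6 and above it at day 8, with log2 ratios of -3.22 and 0.57 and a difference of 3.79. These were picked out because the sign of the ratio changes between time points. The differences were not tested, since each is made from 1 value per condition. The Notch2 ratio at day 0 and the Dll1 ratio at day 8 lie within the 0.63 log2 spread between the day 6 controls. With the other day 6 control and centring, the day 6 ratio of Notch2 was 0.48, also within that spread, and that of Dll1 was -1.76. The day 8 knockdown also differs in the stage of infection and, by the labels, in the hairpins.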

How the results depend on the processing

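Of the counts and medians of the 10 genes and of the wider list under the alternatives, 137 stayed within 1.5 times the reported count or within the spread and 21 did not. Of the single ratios of the 10 genes, 214 stayed, 16 moved and 1 changed direction. The other day 6 control column, with centring, had the most effect. In the knockdown it left 2 of the 10 genes at least 2-fold lower and 0 higher, with a median of -0.45, turned Jag1 to -0.32, and left 1 gene of the wider list lower and 3 higher. With USP10 it gave 2 of the 10 genes at least 2-fold higher and a median of -1.44, and 4 lower genes of the wider list. The 2 controls differ in their values, and the cause was not tested. A minimum of 5 FPKM left 3 lower genes of the 10 at day 6 and 2 with USP10, where fewer genes are counted, and a minimum of 1 FPKM in both columns left 2 with USP10. In the wider list, the count lower at day 0 was 0 with a pseudocount of 1 or a minimum of 5 FPKM. Without a minimum the wider list gave 4 lower and 3 higher at day 0, 9 lower at day 6, 7 lower and 6 higher at day 8, and 5 lower and 4 higher with USP10. With a pseudocount of 1, 3 of the 10 genes differed by 2-fold between the day 6 controls in place of 5. No paired analysis was possible because each condition has 1 value, and for the same reason no replicate could be left out. Depth limits Heyl and Dll1 at day 0 and Heyl in the USP10 line, which rest on about 9 to 12 fragments.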
